A study of Mus musculus with 6 samples.

Results

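The Serpina1 antitrypsin family of the mouse was followed through the cells of the uterine tube (oviduct). Its 5 members, Serpina1a, Serpina1b, Serpina1c, Serpina1d and Serpina1e, were taken by name from the 50559 genes listed in each count matrix, and Serpina1e carried nearly all of their signal. The family was chosen by the level of Serpina1e measured in proximal against distal epithelial cells of these same libraries. That difference is therefore described here without a p-value. The SE printed with its fitted fold restates the test statistic of the fit and is not an independent error.

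The data were 6 libraries of dissociated uterine tube from adult C57BL6 female mice in estrus, 3 from the proximal section (the uterine end of the tube) and 3 from the distal section (the ovarian end). No treatment or engineered allele is named in the labels, and the regions were cut from the same organ. Each library pooled tissue of 1 region from a group of mice, so the replicates are pools, and the number of mice in a pool was not given in the sources used here. Libraries are called proximal 2, proximal 3, proximal 4, distal 1, distal 2 and distal 3 after the group number in their titles.

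Antitrypsin is a secreted serpin, a protease inhibitor that is cleaved by its target within an exposed loop and then traps the enzyme in a covalent complex. It is best known as a product of hepatocytes that protects tissue from neutrophil elastase. Humans carry a lone SERPINA1 gene, whereas mice carry a tandem cluster of near-identical copies whose loops differ. The oviduct epithelium holds ciliated cells and non-ciliated secretory cells, and the secretory cells release proteins into the lumen through which gametes and embryos pass.

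The similarity of the members limits which of them a read can be assigned to. In the RefSeq annotation of GRCm38.p6 the members lie on the minus strand of chromosome 12 in the order Serpina1b, Serpina1d, Serpina1a, Serpina1c and Serpina1e, between positions 103728156 and 103956897, with Serpina1f and several pseudogenes among or beside them. Their GENCODE transcripts were 92.1% (Serpina1a and Serpina1e) to 97.9% (Serpina1a and Serpina1c) identical, and 94.2% to 96.4% identical over the last 500 bases, where 3' libraries read. Windows of 98 bases were slid along those last 500 bases. Of 403 windows per gene, 0 in Serpina1e were shared exactly with another member, against 43 in Serpina1c (10.7%), 35 in Serpina1a (8.68%), 15 in Serpina1d and 7 in Serpina1b. Compared without gaps, a Serpina1e window differed from its nearest match among the other members by a median of 4 bases and by up to 36. The largest such difference was 6 or 7 bases in each other member. Many reads from that end could thus be told from the other 4 members only by a few mismatches. An ungapped count also rises where a base is inserted or missing, so the 36 does not show that some reads were more distinct. With gaps allowed, Serpina1e was 94.2% to 94.6% identical to each other member over 499 of those 500 bases. The pseudogenes of the cluster were not compared. The following 80-base stretches near the annotated starts are shown because they display how alike the copies are in their promoters. Each is read 5′ to 3′ on the minus strand from the RefSeq promoter table (GRCm38.p6), with TGTTTGC, a variant of the forkhead factor motif, in capitals.
Serpina1e, chr12:103956938-103957017: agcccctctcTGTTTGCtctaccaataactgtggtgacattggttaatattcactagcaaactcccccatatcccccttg
Serpina1a, chr12:103863603-103863682: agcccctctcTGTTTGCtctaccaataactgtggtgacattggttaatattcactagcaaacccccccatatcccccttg
Serpina1b, chr12:103738178-103738257: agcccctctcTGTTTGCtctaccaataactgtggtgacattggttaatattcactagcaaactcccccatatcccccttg
Serpina1c, chr12:103904940-103905019: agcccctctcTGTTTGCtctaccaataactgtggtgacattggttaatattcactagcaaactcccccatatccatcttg
Serpina1d, chr12:103773612-103773691: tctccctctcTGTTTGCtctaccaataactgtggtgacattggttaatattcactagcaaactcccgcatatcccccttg

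The stretch of Serpina1e was identical to that of Serpina1b, which had next to no UMIs in epithelium, and it differed at 1 base from Serpina1a, at 2 from Serpina1c and at 4 from Serpina1d. The annotated starts were placed differently, so that the capitals begin 110 bases before the start in Serpina1e and 48 to 59 bases before it in the other members. Over the promoter windows of 250 bases before to 50 bases after the start, aligned in common, Serpina1b and Serpina1e were 98.4% identical. Searched on both strands, TGTTTGC was in all 5 windows and in 5.07% of 32851 mouse promoter windows, and TGTTCT, a core motif of steroid receptors whose matches in the members do not overlap it, was in all 5 and in 19.0%. TGTTTAC and TATAAA were in none of the 5 windows and in 3.65% and 13.6% of all windows. The 5 windows are copies that were 91.7% to 98.4% identical, so a match or its absence in all 5 is not 5 independent observations. These matches are letters in a window, and binding was not measured.

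The libraries differed in depth and in cell makeup. They held 20731 barcodes and 91560090 unique molecular identifiers (UMIs, counts of captured RNA molecules), with 426707 to 5633091 UMIs in a proximal library and 24175396 to 32488145 in a distal library. After filtering, 18466 cells were kept, 824, 325 and 1133 from proximal 2, 3 and 4 and 6652, 4115 and 5417 from distal 1, 2 and 3. The median cell had 3360, 730 and 1081 UMIs in proximal 2, 3 and 4, against 3310, 4623 and 2923 in distal 1, 2 and 3. Any pair of libraries shared at most 58 listed barcodes. The epithelial clusters carried the epithelial markers, all 12 of which were detected in ciliated and in non-ciliated cells except for 1 at 0 in proximal 2 non-ciliated cells. Non-ciliated cells numbered 286, 91 and 149 in proximal 2, 3 and 4 and 1807, 894 and 1229 in distal 1, 2 and 3. Ciliated cells numbered 24, 7 and 34 in the proximal libraries and 650, 434 and 1172 in the distal ones, and the 7 cells of proximal 3 were too few for the ciliated comparison, which was made with proximal 2 and 4 alone.

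Of the 5 members, 3 were not detected. Serpina1a, Serpina1c and Serpina1d had 0 UMIs in every library, over all listed barcodes and not only the cells kept. In non-ciliated cells a count of 0 allows up to 1.91 CPM (UMIs per 1000000) over the proximal libraries and 0.117 CPM over the distal ones. Serpina1b had 12 UMIs in 7 cells, of which 11 lay in 6 fibroblasts (1 UMI in proximal 4, against 1, 5 and 4 in distal 1, 2 and 3) and 1 in a non-ciliated cell of proximal 4. Serpina1e had 1304 UMIs in 268 cells, 99.1% of the 1316 UMIs of the family (exact 95% interval 98.4 to 99.5%). Of the 274 cells with a UMI of any member, 1 held UMIs of more than 1 member. These numbers are as the authors' counting assigned the reads, and the split between near-identical members is uncertain to that extent. Only Serpina1e passed the filter on low counts in the epithelial comparisons, and summing the 5 members to a single feature gave a log2 fold change of 6.75 in non-ciliated cells, as did Serpina1e alone. The number of UMIs of Serpina1b in fibroblasts was too small to show a regional difference, with a pooled proximal over distal ratio of 0.776 (95% counting interval 0.0179 to 5.46).

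In non-ciliated epithelium Serpina1e was abundant in all 3 proximal libraries and scarce in all 3 distal ones. UMIs were summed over the cells of a class in each library and given as CPM, relative to the summed total. Serpina1e had 257 UMIs (373 CPM) in proximal 2, 229 (985 CPM) in proximal 3 and 484 (747 CPM) in proximal 4, against 135 (12.9 CPM) in distal 1, 21 (3.50 CPM) in distal 2 and 3 (0.327 CPM) in distal 3. The groups did not overlap, which the choice of the family by this contrast favours. How many of all genes separate in this way was not counted, here or for Prss23 below. The distal libraries were spread more widely among themselves on a ratio scale than the proximal ones. The mean was 702 ± 308 CPM in proximal and 5.59 ± 6.56 CPM in distal libraries (SD, n = 3 each). In the edgeR fit, with TMM scaling, the log2 fold change of proximal over distal was 6.75 ± 1.11 (SE, derived from the F statistic of the fit). Over all genes of that comparison, 349 of 12813 (2.72%) passed an adjusted p of 0.05, 264 (2.06%) higher and 85 (0.663%) lower in proximal cells. Without distal 1, the fold was 8.32 on the log2 scale.

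**Figure D1:**
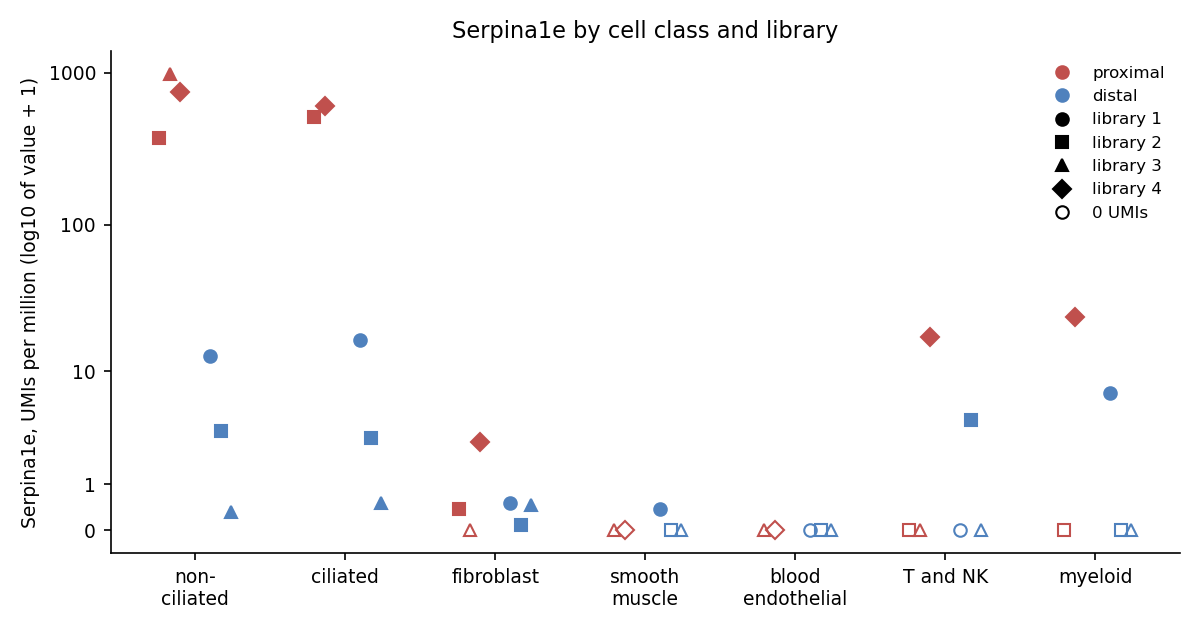
Serpina1e CPM by cell class, on a log axis of the value plus 1; each symbol is the sum over a class in 1 library with at least 10 cells, proximal left of distal, and open symbols are libraries with 0 UMIs. Non-ciliated and ciliated cells of the proximal libraries lie at 373 to 985 CPM, above every distal epithelial value (at most 16.6).

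Ciliated epithelium showed the same separation in the 2 proximal libraries with enough cells. Serpina1e had 36 UMIs (510 CPM) in proximal 2 and 70 (603 CPM) in proximal 4, against 42 (16.6 CPM) in distal 1, 6 (3.04 CPM) in distal 2 and 3 (0.505 CPM) in distal 3. The mean was 557 ± 66.0 CPM in proximal (SD, n = 2) and 6.71 ± 8.64 CPM in distal libraries (SD, n = 3). The log2 fold change was 6.36 ± 0.90 (SE), and over all genes of this comparison 18 of 12968 (0.139%) passed, 14 higher and 4 lower in proximal cells. Without distal 1, the fold was 8.50 on the log2 scale. In this comparison the median of all genes lay at -0.30 on the log2 scale. The 7 ciliated cells of proximal 3 held 0 Serpina1e UMIs among 11557, which allows up to 260 CPM, a limit below the level of the other 2 proximal libraries.

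The 2 epithelial classes were then compared within libraries. Serpina1e had 373 CPM in non-ciliated and 510 CPM in ciliated cells of proximal 2, and 747 and 603 CPM in those of proximal 4. In the distal libraries the values were 12.9 CPM in non-ciliated and 16.6 CPM in ciliated cells of distal 1, 3.50 and 3.04 CPM in those of distal 2, and 0.327 and 0.505 CPM in those of distal 3. The direction differed between libraries in both regions. With the library kept as a block, the log2 fold change of non-ciliated over ciliated cells was 0.40 ± 0.32 (SE) in the proximal libraries. It was -0.03 ± 0.37 in the distal libraries. The same class sums entered the choice of the family, so these folds are described without a p-value. The proximal fold rests on 2 libraries, with 24 and 34 ciliated cells. Of all 14513 genes, 8.85% passed this contrast in the proximal and 55.5% in the distal libraries.

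Outside the epithelium Serpina1e was nearly absent. Epithelial cells held 1286 of its 1304 UMIs (98.6%). Fibroblasts had 1, 0 and 2 UMIs in proximal 2, 3 and 4, against 4, 1 and 3 in distal 1, 2 and 3, which is 0.388, 0 and 2.79 CPM against 0.516, 0.0818 and 0.475 CPM. Serpina1e did not pass the count filter in fibroblasts, where 2.71% of 13747 genes passed the regional test, and the pooled proximal over distal ratio was 2.91 (95% counting interval 0.497 to 12.1). Smooth muscle had 2 UMIs in distal 1 and 0 in the other libraries, T and NK cells had 2 in proximal 4 and 1 in distal 2, and myeloid cells had 1 in proximal 4 and 1 in distal 1. Blood and lymphatic endothelium, pericytes, mesothelium and granulosa or luteal cells had 0 in every library. All UMIs outside the epithelium together came to 6 (1.38 CPM) in the proximal and 12 (0.318 CPM) in the distal libraries. Their pooled proximal over distal ratio was 4.35 (95% counting interval 1.34 to 12.5). The summed epithelium was above fibroblasts in 3 of 3 proximal libraries, with 386, 938 and 725 CPM in the epithelium of proximal 2, 3 and 4 and a pooled ratio over fibroblasts of 688 (95% counting interval 235 to 3340). The level in proximal epithelium entered the choice of the family, so these contrasts are described without a p-value. In the distal libraries the epithelium had 13.6, 3.39 and 0.397 CPM in distal 1, 2 and 3, so it was above fibroblasts in 2 of 3 libraries and not in distal 3. The distal log2 fold change was 3.78 ± 0.65 (SE), with a pooled ratio of 19.1 (95% counting interval 9.54 to 44.9). Without distal 1 it was 2.70 ± 0.90, and without distal 3 it was 4.63 ± 0.51. Among all 16574 genes, 40.4% passed in the proximal and 62.3% in the distal libraries, and 17.2% (proximal) and 31.2% (distal) of all genes passed as higher in epithelium.

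Within the epithelium Serpina1e was concentrated in a few clusters. Cells were clustered without the 5 members and without the listed genes, so Serpina1e did not define the clusters, although genes that vary with it could. Clusters E12 (172 cells) and E13 (89 cells), both non-ciliated, made up 1.41% of all cells and held 1073 of the 1304 Serpina1e UMIs (82.3%). E12 was made of cells of proximal 3 (83) and proximal 4 (81), with 1 cell of proximal 2 and 7 of distal 1, and E13 of cells of proximal 2 (86), with 2 of distal 1 and 1 of distal 2. The libraries therefore contributed different clusters, and a cluster held mostly by 1 library may mark that library. E12 and E13 together held 30.4%, 91.2% and 54.4% of the non-ciliated cells of proximal 2, 3 and 4, against 0.498% and 0.112% of those of distal 1 and 2 and 0 of 1229 cells in distal 3. Their leading genes by fold included Penk, the precursor of enkephalin peptides, in both, with Cwh43 in E12 and Crabp2 and Fxyd4 in E13.

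**Figure D2:**
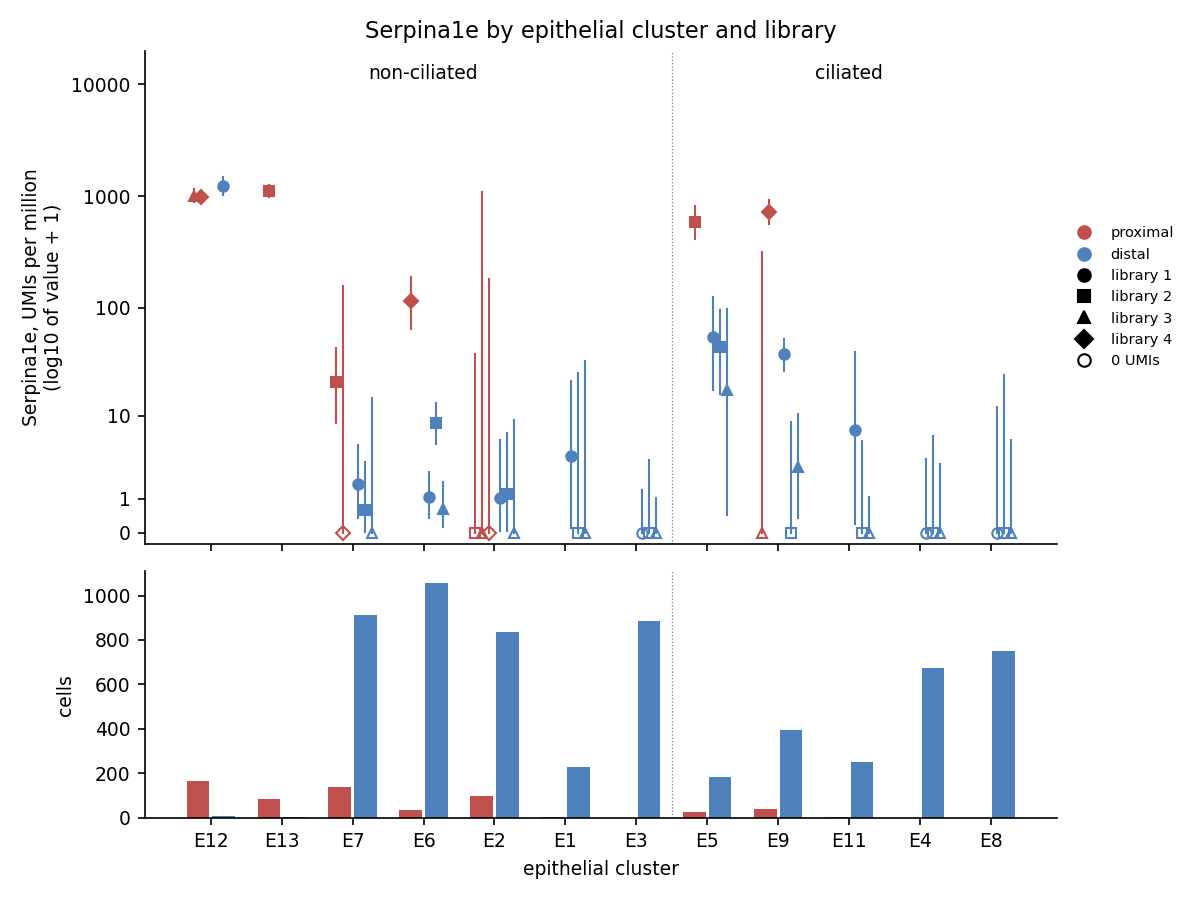
Serpina1e CPM in each epithelial cluster and library with at least 5 cells (upper panel, log axis of the value plus 1, vertical lines are exact 95% Poisson intervals, open symbols are 0 UMIs) and the number of cells of each region (lower panel), proximal left of distal. E12 and E13 lie near 1000 CPM and, apart from the 7 distal 1 cells of E12, consist almost wholly of proximal cells.

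Within E12 the CPM had overlapping intervals in cells of both regions. It was 1013 CPM (exact 95% Poisson interval 886 to 1153) in proximal 3 and 993 CPM (905 to 1087) in proximal 4, against 1240 CPM (1025 to 1486) in distal 1. E13 of proximal 2 had 1120 CPM (985 to 1267). In distal 1, 117 of the 135 non-ciliated UMIs came from the 7 cells of E12, and 8 more came from 1 of the 2 cells of E13. The 7 cells had a median of 14057 UMIs and 7.68% mitochondrial UMIs, against 3310 UMIs and 3.30% for all cells of distal 1. Median mitochondrial shares in E12 were 3.37% in proximal 3 and 4.32% in proximal 4, whereas that of E13 in proximal 2 was 0.291%. Their presence makes up most of the distal 1 value, and with the distal 1 cells of both clusters left out the log2 fold change was 8.58 ± 0.95. These 2 exclusions of clusters were added after the data were seen.

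Few Serpina1e UMIs of the proximal libraries and of distal 1 came from non-ciliated cells outside E12 and E13, whereas all non-ciliated UMIs of distal 2 and 3 did. Proximal 2, 3 and 4 had 7, 0 and 15 UMIs there, against 10, 21 and 3 in distal 1, 2 and 3. Those are 15.1 CPM, 0 CPM (with 8 cells and a limit of 469 CPM) and 85.5 CPM in the proximal libraries, against 0.967, 3.51 and 0.327 CPM in the distal ones. The 15 UMIs of proximal 4 lay in 4 of 29 cells of cluster E6, and 19 of the 21 UMIs of distal 2 lay in 4 of 137 cells of the same cluster. With E12 and E13 left out in both regions, proximal 3 also left the fit, because its 8 remaining cells were below the minimum of 10. With proximal 2 and proximal 4 against the distal libraries, the log2 fold change of Serpina1e was 4.57 ± 0.95. In that fit 0 genes passed edgeR's adjusted p of 0.05, against 1392 at an unadjusted p under 0.05. Leaving out proximal 3 alone, with all clusters kept, gave 6.47 and 36 calls. The parts of the clusters and of the lost library were not told apart.

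Ciliated cells with Serpina1e also fell in different clusters by library. In proximal 2, 36 UMIs lay in cluster E5 (593 CPM, in 14 of 22 cells), and in proximal 4, 68 of 70 lay in cluster E9 (727 CPM, in 13 of 30 cells). In E5 the distal libraries had 54.1, 44.0 and 17.8 CPM in distal 1, 2 and 3, from 5, 6 and 1 UMIs. Mitochondrial UMIs were low in E5, with a median of 0% in proximal 2, against 0.223% in distal 1 and 0.111% in distal 2. In E9 the distal libraries had 36 UMIs in 4 of 166 cells of distal 1 (37.9 CPM), 0 UMIs in 72 cells of distal 2 and 2 UMIs in distal 3 (2.88 CPM). Clusters E4 and E8, which held most other ciliated cells and were almost wholly distal, had 0 Serpina1e UMIs in each distal library.

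E12 and E13 carried epithelial markers and lacked those of hepatocytes. The 12 epithelial markers summed to 9152 and 9623 CPM in E12 of proximal 3 and 4 and to 6516 CPM in E13 of proximal 2, against 10394 CPM in E12 of distal 1, with at most 1 marker at 0. All 7 hepatocyte markers that the files list, among them Alb, Apoa1 and Ttr, were at 0 in E12 and E13 of these 4 libraries, and so were all 5 neutrophil markers. Summed over all non-ciliated cells the hepatocyte markers came to 0 to 1.54 CPM in proximal and 2.95 to 4.67 CPM in distal libraries, and over ciliated cells to 0 to 42.5 CPM in proximal and 2.02 to 4.73 CPM in distal libraries. The oviduct secretory gene Ovgp1 was present, at 2256 and 4070 CPM in E12 of proximal 3 and 4 and 2741 CPM in E13 of proximal 2, against 4132 CPM in E12 of distal 1. A list of 6 uterine gland markers summed to 973, 1187 and 717 CPM in the proximal sums, with 4, 3 and 3 markers at 0, against 233 CPM in distal 1 with 5 at 0. Over all non-ciliated cells the list summed to 767, 951 and 1122 CPM in proximal libraries and 574, 706 and 528 CPM in distal ones. Foxa2, a defining factor of uterine glands, was at 0 in all 4. A count of 0 there allows up to 13.3, 6.35 and 13.4 CPM in the proximal sums and 31.8 CPM in distal 1. Those limits lie above its level in all distal non-ciliated cells, 3.93, 1.67 and 4.58 CPM in distal 1, 2 and 3. The zeros were therefore too shallow to show whether Foxa2 was lower there than elsewhere. Erythroid markers summed to 119, 1098 and 573 CPM in the proximal sums, against 10.6 CPM in distal 1, fibroblast markers to 48.7, 123 and 94.0 against 53.0 CPM, and ciliated markers to 31.0, 44.4 and 17.9 against 95.4 CPM. Lymphatic endothelial markers summed to 226, 86.8 and 17.9 CPM against 0 CPM, with 5 of 6 at 0 in each proximal sum, and pericyte markers to 106, 80.4 and 8.96 against 42.4 CPM, with 6 of 7 at 0 in each sum. Over all non-ciliated cells the lymphatic markers came to 37.8, 219 and 89.5 CPM in proximal 2, 3 and 4, against 10.1, 8.84 and 12.4 CPM in distal 1, 2 and 3. The part of any of these in the Serpina1e level was not tested.

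Counting cells gave the same separation with more spread between proximal libraries. At least 1 Serpina1e UMI was found in 52 of 286 (18.2%), 65 of 91 (71.4%) and 70 of 149 (47.0%) non-ciliated cells of proximal 2, 3 and 4, against 14 of 1807 (0.775%), 6 of 894 (0.671%) and 1 of 1229 (0.0814%) of distal 1, 2 and 3. In ciliated cells the shares were 14 of 24 (58.3%), 0 of 7 and 14 of 34 (41.2%) in proximal 2, 3 and 4, against 10 of 650 (1.54%), 4 of 434 (0.922%) and 3 of 1172 (0.256%) in distal 1, 2 and 3. The share in proximal fibroblasts, taken as the background of free RNA, was 0.268% (median 1385 UMIs), and that in distal fibroblasts was 0.0860% (median 3489 UMIs). After each cell was thinned to 1000 UMIs, 27.7% of proximal and 0.213% of distal non-ciliated cells had a Serpina1e UMI, with 111 and 173 shallower cells left out. For ciliated cells the thinned shares were 34.7% in proximal and 0.222% in distal cells, with 16 and 454 left out, and for fibroblasts 0.279% and 0.0295%, with 402 and 198 left out. The distal epithelial shares rest on 8 and 4 cells after thinning.

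**Figure D3:**
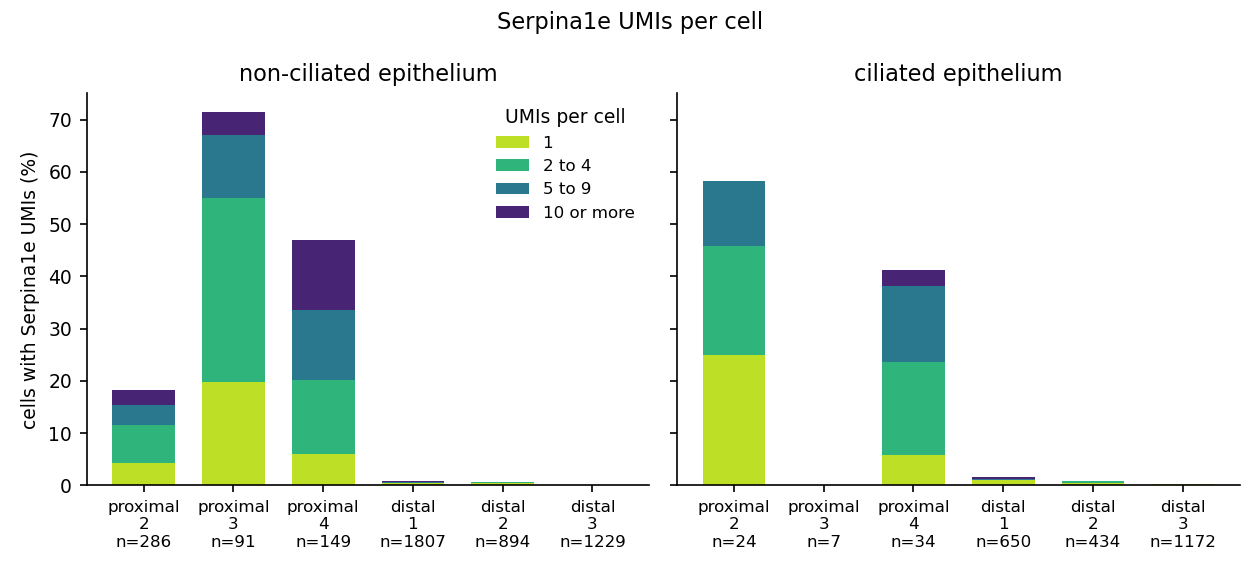
Share of non-ciliated (left) and ciliated (right) cells of each library with Serpina1e UMIs, stacked by the number of UMIs per cell, proximal left of distal; n is the number of cells. Proximal libraries reach 71.4% of non-ciliated cells, and the distal libraries stay at or below 1.54% in both classes.

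The positive cells differed in how much they held. The median positive non-ciliated cell had 3, 3 and 5 Serpina1e UMIs in proximal 2, 3 and 4, and the maximum was 32, 17 and 22. In distal 1 the 14 positive cells had a median of 2 and a maximum of 40 UMIs. In distal 2, 14 of the 21 UMIs came from 1 cell, and in distal 3 all 3 came from 1 cell. The UMIs of distal non-ciliated cells thus lay in few cells. In ciliated cells the 10 positive cells of distal 1 had a median of 1 and a maximum of 17 UMIs, whereas the 4 positive cells of distal 2 held at most 2 UMIs and the 3 of distal 3 held 1 UMI each.

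Genes with a pattern like that of Serpina1e were ranked by Pearson correlation of log2(CPM + 5) over 47 sums of a library and a class, among 14807 genes. These sums share libraries, so the coefficients are descriptions. The 8 highest were Fbp2 (0.91), Galm (0.89), Cwh43 (0.87), Slc15a1 (0.86), Uox (0.86), Fxyd4 (0.86), Dact2 (0.85) and Gm32462 (0.85). Fbp2 is the muscle form of fructose bisphosphatase, Galm interconverts the anomers of galactose, Slc15a1 is a proton-coupled peptide transporter, Uox oxidises urate, and Fxyd4 modulates the sodium pump. Galm had 303 ± 107 CPM in proximal and 19.8 ± 3.35 CPM in distal non-ciliated cells (SD, n = 3 each), and 619 ± 174 CPM (SD, n = 2) in proximal and 68.5 ± 45.6 CPM (SD, n = 3) in distal ciliated cells. Fxyd4 had 1127 ± 154 CPM in proximal and 23.5 ± 8.09 CPM in distal non-ciliated cells (SD, n = 3 each), and 1114 ± 308 CPM (SD, n = 2) in proximal and 201 ± 98.3 CPM (SD, n = 3) in distal ciliated cells. Uox had 133 ± 61.9 CPM in proximal and 0.886 ± 0.394 CPM in distal non-ciliated cells, but 143 ± 18.8 CPM in proximal and 47.0 ± 8.17 CPM in distal ciliated cells. Cwh43 was uneven among proximal libraries, at 21.8, 361 and 236 CPM in the non-ciliated cells of proximal 2, 3 and 4.

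**Figure D4:**
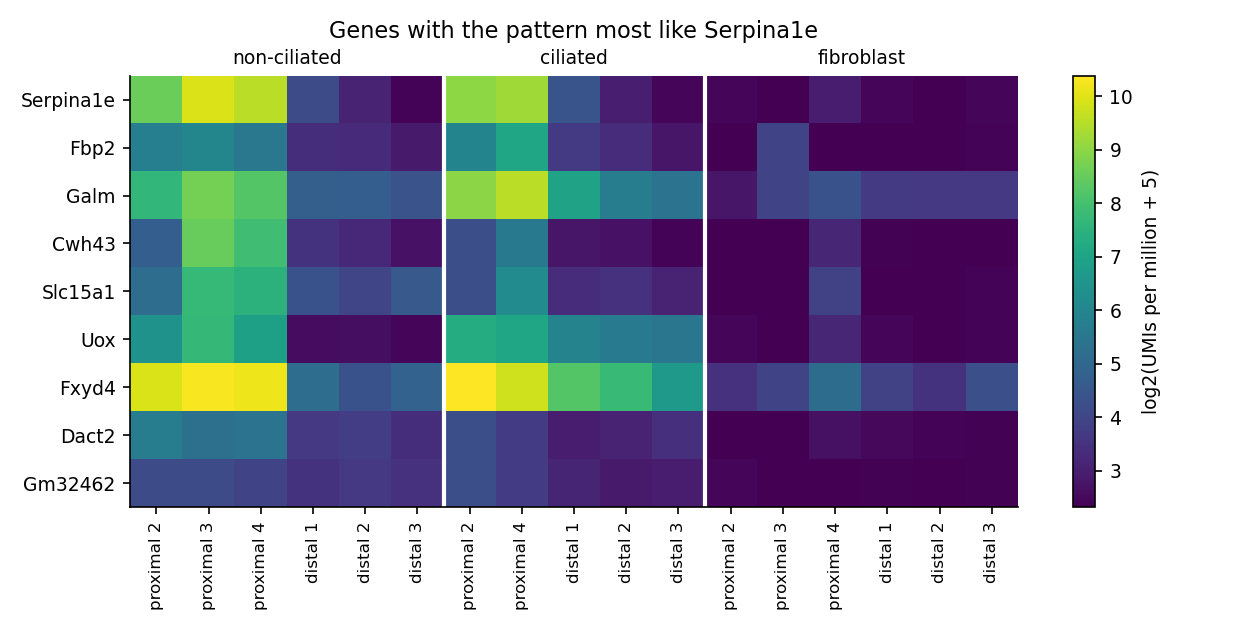
Level of Serpina1e and of the 8 genes with the most similar pattern, as log2(CPM + 5), in non-ciliated, ciliated and fibroblast sums of each library, proximal left of distal. Serpina1e and the 8 genes are on average higher in proximal than in distal epithelium and low in fibroblasts, and Fxyd4, Galm and Uox also have a visible level in distal ciliated cells.

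Other serpins gave few calls in edgeR, in which 2.06% of all genes rose and 0.663% fell in proximal non-ciliated cells. Of all genes, 16.7% had an unadjusted p under 0.05 and 11.5% passed in DESeq2. Of 20 clade A serpins other than the members, 1 was measured well enough to be tested in non-ciliated cells. It was Serpina3n, an acute-phase inhibitor, at 9.90 ± 4.34 CPM in proximal and 10.1 ± 3.05 CPM in distal libraries (SD, n = 3 each), and 0 of 1 passed by edgeR or DESeq2 or at an unadjusted p under 0.05. Of 11 serpins of other clades tested, 0 rose and 1 fell. It was Serpinb5 (maspin), with 2 UMIs in proximal and 494 in distal non-ciliated cells, a pooled ratio of 0.0661 (95% counting interval 0.00798 to 0.240, edgeR adjusted p = 0.0145), lower in 3 of 3 proximal libraries. At an unadjusted p under 0.05 there were 3 of the 11, and DESeq2 called 3. The median log2 fold change of the 11 was -0.54, against -0.08 over all genes.

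Among 17 other secreted protease inhibitors tested in non-ciliated cells, 1 rose and 3 fell in edgeR (8 had an unadjusted p under 0.05), and DESeq2 called 8. Wfdc10, a whey acidic protein domain gene, rose to 19.9 ± 11.8 CPM in proximal libraries (27 UMIs), against 0.299 ± 0.261 CPM in distal libraries (8 UMIs), a log2 fold change of 5.66 ± 0.68 (edgeR adjusted p = 0.00719). Wfdc1 fell to 2.38 ± 2.78 CPM in proximal libraries, against 45.4 ± 20.9 CPM in distal libraries (log2 fold change -3.89 ± 0.69, edgeR adjusted p = 0.0233). Timp4, an inhibitor of metalloproteases, had 2 UMIs in proximal and 398 in distal cells, a pooled ratio of 0.0820 (95% counting interval 0.00990 to 0.298, edgeR adjusted p = 0.0247). Tfpi, the tissue factor pathway inhibitor, had 0 UMIs in proximal and 232 in distal cells, at least 4.74-fold lower when set against 3 counts over the proximal group (edgeR adjusted p = 0.0499). The median log2 fold change of the 17 was -0.13.

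Of 12 serine proteases tested, the kind of enzyme that serpins inhibit, 2 rose in non-ciliated cells and 0 fell in edgeR (4 had an unadjusted p under 0.05), and DESeq2 called 3. Prss23 rose to 45.0 ± 9.68 CPM in proximal libraries, against 10.4 ± 1.58 CPM in distal libraries (log2 fold change 2.14 ± 0.35, edgeR adjusted p = 0.0190), and the lowest proximal value, 36.7 CPM, was above the highest distal value, 11.9 CPM. Klk11, a kallikrein-related peptidase, rose to 79.5 ± 12.7 CPM in proximal libraries, against 21.6 ± 3.76 CPM in distal libraries (log2 fold change 1.87 ± 0.36, edgeR adjusted p = 0.0277). Of the 7 calls named from these lists, each was lost in some of the fits that left out 1 library. Serpinb5 and Wfdc1 were lost without distal 1, distal 2, distal 3 or proximal 3, and Wfdc10 without any of the 3 distal libraries. Prss23 and Klk11 were lost without any library except proximal 2, Timp4 without distal 1, proximal 3 or proximal 4, and Tfpi without proximal 3 or proximal 4. Timp4 and Tfpi passed the count filter in 4 and 3 of the 6 such fits. Over the fits edgeR's adjusted p ran between 3.02e-05 (Wfdc10) and 0.236 (Klk11), and no direction changed. With distal sums thinned to proximal depth, Prss23 (2.47 ± 0.52 on the log2 scale, edgeR adjusted p = 0.0645) and Klk11 (2.28 ± 0.50, edgeR adjusted p = 0.0752) were lost as well, and only Wfdc1 of the other 5 passed the count filter. Tfpi was also lost at 10% mitochondrial UMIs (edgeR adjusted p = 0.0514). With E12 and E13 left out, a fit that also lacked proximal 3 for want of cells, 6 of the 7 could be fitted and 0 passed. The fitted log2 fold changes of some were still close to those above, at -3.42 for Timp4 (-3.71 with all clusters) and 1.91 for Prss23. They were -2.71 for Serpinb5, -2.49 for Wfdc1 and 1.29 for Klk11, and Tfpi had 0 proximal UMIs with or without these clusters.

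The genes that handle antitrypsin inside the cell, and those that regulate it in liver, gave no edgeR call in non-ciliated cells. Of all genes there, 2.72% passed in edgeR, 16.7% had an unadjusted p under 0.05 and 11.5% passed in DESeq2. At such an edgeR share, lists of this size would hold few calls or none. Of 29 genes of endoplasmic reticulum folding, export and disposal, 0 passed in edgeR (1 at an unadjusted p under 0.05) and 1 in DESeq2, with a median log2 fold change of -0.53. Lman1, the cargo receptor that carries antitrypsin out of the endoplasmic reticulum, had 74.7 ± 46.7 CPM in proximal and 114 ± 19.9 CPM in distal libraries, and the chaperone Hspa5 had 827 ± 480 CPM in proximal and 1544 ± 305 CPM in distal libraries (SD, n = 3 each). Of 16 regulators of hepatic antitrypsin and hormone receptors, 0 passed in edgeR (7 at an unadjusted p under 0.05) and 4 in DESeq2, with a median of 0.01. The smallest adjusted p-values among them belonged to Gata6, a zinc finger transcription factor, Il1r1, an interleukin 1 receptor, and Pgr, the progesterone receptor. Gata6 had 3 UMIs in proximal and 465 in distal cells, a pooled ratio of 0.105 (95% counting interval 0.0216 to 0.310, edgeR adjusted p = 0.0527). Il1r1 had 7.89 ± 1.42 CPM in proximal and 34.8 ± 14.3 CPM in distal libraries (log2 fold change -2.11 ± 0.50, edgeR adjusted p = 0.0554). Pgr had 86.9 ± 31.1 CPM in proximal and 29.1 ± 3.16 CPM in distal libraries (log2 fold change 1.57 ± 0.40, edgeR adjusted p = 0.0660), and the estrogen receptor Esr1 had 849 ± 519 and 681 ± 181 CPM in proximal and distal libraries. Of 3 receptors of serpin and protease complexes, 0 passed (0 at an unadjusted p under 0.05 and 0 in DESeq2). The genes in this paragraph and Serpina3n were named for their role after their values were seen.

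In ciliated cells, with 2 proximal libraries, 0 genes of any of the 7 lists passed in edgeR, against 0.139% of all genes. At an unadjusted p under 0.05 there were 2 of 2 clade A serpins, 4 of 14 other serpins, 6 of 17 other secreted inhibitors, 3 of 13 serine proteases, 6 of 29 endoplasmic reticulum genes, 3 of 17 regulators and 0 of 3 receptors, against 15.1% of all genes. DESeq2 called 0, 1, 3, 1, 0, 1 and 0 of them, in the same order, and 3.91% of all genes. Timp4 had 33.2 ± 14.0 CPM (SD, n = 2) in proximal and 429 ± 49.3 CPM (SD, n = 3) in distal ciliated cells, with an edgeR adjusted p of 0.0569. Wfdc10 had 50.9 ± 50.0 CPM (SD, n = 2) in proximal and 1.63 ± 1.65 CPM (SD, n = 3) in distal ciliated cells, with an edgeR adjusted p of 0.140.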

How the data were processed

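Single-cell RNA of 6 uterine tube libraries was measured with the 10x Genomics Single Cell 3' v2 assay, per the labels. The authors deposited 1 matrix of UMI counts per library, without scaling. Cell Ranger 6.1.2 and mm39 are given in the submitters' processing notes, and version 7.0.0 in the file headers. How reads that match several family members were treated is not given in the sources used here, and each member's count depends on it. Strand use is likewise not given.

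Cells with at least 500 UMIs, 250 genes and at most 20% mitochondrial UMIs were kept, and doublets were removed by similarity to simulated doublets at 0.8% per 1000 cells (818 cells). The deposited matrices start at 500 UMIs. Cells were clustered (scanpy 1.11.5, Leiden, resolution 1, epithelium again alone) without the members, list genes and markers, and clusters were named from markers. UMIs were summed per library and class with at least 10 cells and fitted with edgeR 4.0.16 (quasi-likelihood, TMM, filterByExpr with a minimum count of 10, Benjamini-Hochberg over all genes tested, two-sided). The SE of each edgeR fold is the absolute log2 fold change divided by the square root of its quasi-likelihood F statistic. It restates that statistic and is not a separate estimate of error. DESeq2 1.42.0 was the alternative tool. The fits were tested on simulated data. Levels of Serpina1e and of the genes like it are CPM of summed counts, and levels of list genes are CPM with TMM scaling. The likeness list took genes with at least 200 UMIs over sums of at least 20000 UMIs.

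Intervals are 95% Poisson or Clopper-Pearson intervals, limits for a count of 0 use 3 counts, and both cover counting error only. From each list, up to 4 passing genes with the smallest adjusted p were named. The members and lists were chosen with earlier results of these data known. The values of 1 listed gene are not reported here. The p-values measure the spread between pooled libraries. Promoter letters come from RefSeq (GRCm38.p6) and transcripts from GENCODE on GRCm38, not the build of the counts, so they serve for names and comparison only.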

Additional observations from a re-analysis of the deposited data

How the results depend on the processing

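The Serpina1e fold in non-ciliated cells kept its direction under all 17 alternatives and that in ciliated cells under all 14. The family was chosen by this difference and the alternatives reuse the same counts, so an unchanged direction is no separate support. In non-ciliated cells the log2 fold change was 8.61 and 8.41 with a replicate block of the title or description number, 6.23 to 8.32 when a library was left out, and, in alternatives chosen after seeing the data, 4.57 without E12 and E13 and 8.58 without the distal 1 cells of those clusters. In ciliated cells it was 8.50 with the block of the description number and 5.77 to 8.50 when a library was left out. The title-number block could not be fitted in ciliated cells, for want of residual degrees of freedom.

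Counts of calls moved more. In non-ciliated cells there were 1472 by DESeq2, 1308 with no filter, 54 with distal sums thinned and 0 without E12 and E13. Without a library there were 6 to 3296 (6 or 7 without a distal one, 3296 without proximal 2). The fit without E12 and E13 also lacked proximal 3, and leaving out proximal 3 alone left 36 calls. In ciliated cells there were 448 by DESeq2, 566 with no filter, 46 at a minimum count of 5, 254 with proximal 3 kept, 0 at 10% mitochondrial UMIs (1804 at an unadjusted p under 0.05), 66 with the description block and 1 to 25 without a library. In fibroblasts there were 1398 with no filter, 207 thinned and 45 to 1923 without a library. Non-ciliated against ciliated calls were 498 (proximal) and 4443 (distal) with no replicate block, and 560 to 1452 (proximal) without a library. The causes were not tested.

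The title numbers pair 2 libraries of each region, as do the description numbers, and neither is stated to mark a shared batch. Deviations in non-ciliated cells correlated at 0.668 (number 2) and 0.472 (title number 3) or 0.511 (description number 4). The highest pair that neither number matches was proximal 4 with distal 1, at 0.263. In fibroblasts the matched pairs had 0.493, 0.193 and 0.0665, in the same order. There the unmatched pair of proximal 4 with distal 1 had 0.238, above all of these but the first. Deviations from a regional mean of 3 libraries are not independent, so the pairing is a hint only. The 2 replicate-block fits gave 497 and 430 calls in non-ciliated cells, against 349 without a block. In each of them only the 2 pairs inform the regional fold, and libraries without a partner, distal 1 among them, do not. Few residual degrees of freedom are left, so these calls are weak evidence of robustness. Under the title-number block Tfpi had an edgeR adjusted p of 0.0723, and no other named call was lost under either block. The ciliated comparison rests on 24 and 34 proximal cells, and thinning the distal sums left 17 calls, against 18.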
